A study of Mus musculus with 2 samples.

Results

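Frizzled receptors, the cell surface receptors for Wnt proteins, were compared between the mouse cell lines SVEC4-10 and MS-1, both labelled endothelial, although most defining endothelial genes were below background on the SVEC4-10 array. The family was taken as the 10 genes Fzd1 to Fzd10, and all probe sets assigned to only 1 of these genes were used, which gave 26 of the 34945 probe sets with 1 gene and 10 of the 18193 genes they represent. SVEC4-10 cells derive from an axillary lymph node and were grown in DMEM with 10% fetal calf serum. MS-1 cells derive from the microvasculature of the pancreas and were grown in DMEM with 5% fetal calf serum. Both lines were immortalised with SV40 T antigen, had no treatment named in the labels and were harvested at confluence after 3 to 5 days, up to passage 5. Each line had 1 Affymetrix array of total RNA, so no difference had a replicate check and none could be tested. Line and serum cannot be told apart.

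Wnt proteins bind the extracellular cysteine-rich domain of a Frizzled, usually together with a co-receptor of the LRP family. The signal passes through Dishevelled and either stabilises beta-catenin, which drives transcription with TCF and LEF factors, or enters the planar polarity and calcium branches. By sequence the family falls into the subgroups Fzd1, Fzd2 and Fzd7, Fzd3 and Fzd6, Fzd5 and Fzd8, and Fzd4, Fzd9 and Fzd10. In vessels the best known member is Fzd4, the receptor for norrin, which is needed for the retinal vasculature and for the barrier properties of central nervous system vessels.

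All 10 genes had at least 1 probe set above background on at least 1 array, as did 12583 of the 18193 genes, but Fzd9 and Fzd10 only narrowly. Those counted as at least 2-fold apart were the members of 2 of the 4 subgroups. Fzd1, Fzd2 and Fzd7 and the pair Fzd3 and Fzd6 had higher signals in SVEC4-10 cells, by at least 62.7-fold, 10.3-fold, 7.91-fold, at least 3.20-fold and 6.29-fold. Fzd4, Fzd5, Fzd8 and Fzd10 differed by less than 2-fold between the lines. Fzd9 did not pass 2-fold either, but its difference, at least 1.06-fold towards MS-1, was only a bound. Of all measured genes, 72.8% did not pass 2-fold. In RNA from whole cultures, fewer cells that express a gene and less RNA per cell cannot be told apart. Background was the signal that 95% of 129 probe sets of taste, odorant and pheromone receptor and keratin-associated genes stayed under, which was 17.6 in SVEC4-10 cells and 16.3 in MS-1 cells. Signals below it were raised to it before a ratio was taken, so that "at least" marks a lower bound, and each log2 ratio has SVEC4-10 as its numerator. Thus 5 of 10 Frizzled genes passed 2-fold towards SVEC4-10, as did 15.1% of the 12583 measured genes, and 0 of 10 passed it towards MS-1, as did 12.1% of measured genes. At 4-fold the counts were 4 of 10 towards SVEC4-10 and 0 of 10 towards MS-1, beside 5.71% and 4.24% of measured genes, and at 8-fold they were 2 of 10 and 0 of 10, beside 2.81% and 2.3%. The median log2 ratio of the 10 genes was at least 1.03, beside 0.015 for all measured genes. It fell in the gap between Fzd5 (0.39) and Fzd3 (at least 1.68), so it described no single gene. By the probe set that stands for the gene, 2 of 10 (Fzd1 and Fzd3) were above background in SVEC4-10 cells only, as were 8.94% of measured genes, 1 of 10 (Fzd9) in MS-1 cells only, as were 11% of measured genes, and 7 of 10 in both lines, as were 80.1% of measured genes.

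**Figure D1:**
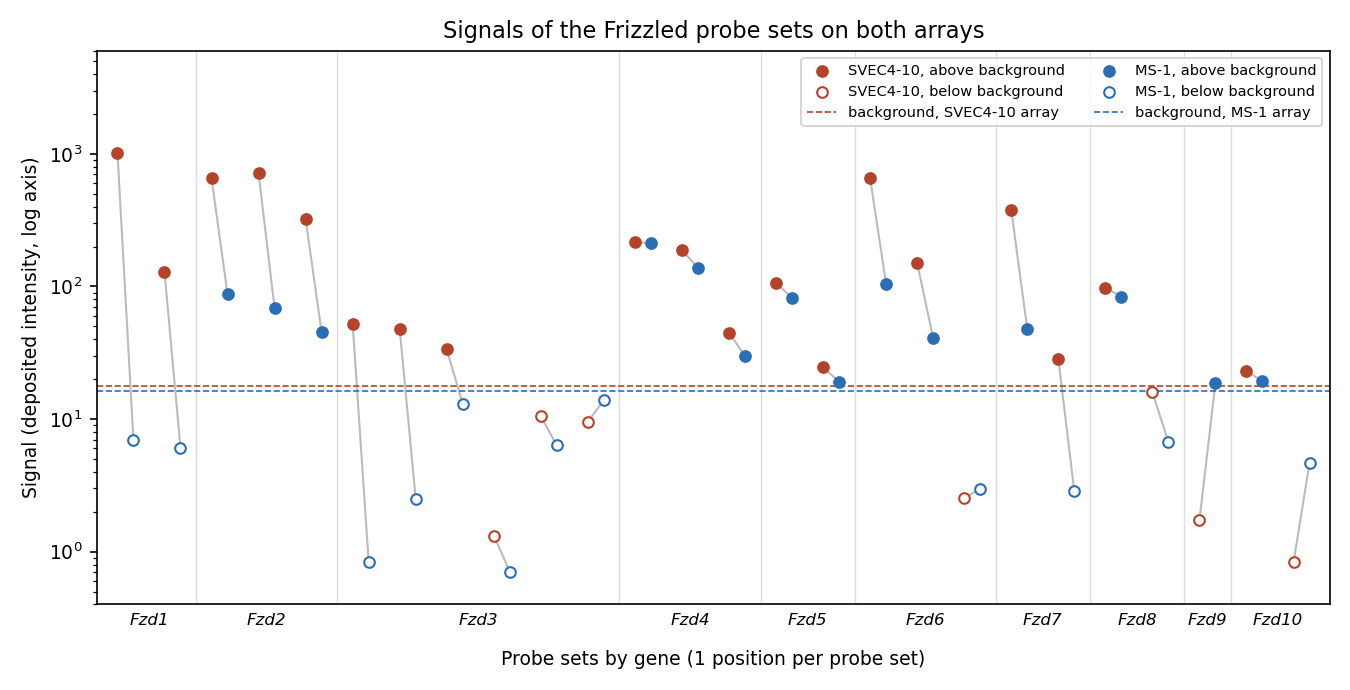
Signal (deposited intensity, log axis) of each of the 26 Frizzled probe sets, grouped by gene, in SVEC4-10 cells (red, left of each pair) and in MS-1 cells (blue, right of each pair). Open circles lie below the background of their array (dashed lines, 17.6 for SVEC4-10 and 16.3 for MS-1). The pairs of Fzd1, Fzd2 and Fzd7 are spread far apart, with 1022 in SVEC4-10 cells and 6.996 in MS-1 cells at the upper probe set of Fzd1, whereas the pairs of Fzd4 and Fzd5 lie almost level.

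Of the 10 genes, 6 had a promoter window in the RefSeq table (GRCm38.p6), and the 250 bases before the start are printed for Fzd1 and Fzd7, which were higher in SVEC4-10 cells, and for Fzd4 and Fzd5, which were not. Capitals mark CTTTGA or CTTTGT on either strand, the core of the site bound by the TCF and LEF factors of the Wnt pathway.
Fzd1, chr5:4758217-4758466, minus strand: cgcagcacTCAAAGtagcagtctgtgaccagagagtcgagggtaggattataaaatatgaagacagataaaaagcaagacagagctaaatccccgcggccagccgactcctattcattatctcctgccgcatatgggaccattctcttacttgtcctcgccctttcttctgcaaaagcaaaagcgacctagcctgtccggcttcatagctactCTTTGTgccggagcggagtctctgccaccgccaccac
Fzd7, chr1:59481897-59482146, plus strand: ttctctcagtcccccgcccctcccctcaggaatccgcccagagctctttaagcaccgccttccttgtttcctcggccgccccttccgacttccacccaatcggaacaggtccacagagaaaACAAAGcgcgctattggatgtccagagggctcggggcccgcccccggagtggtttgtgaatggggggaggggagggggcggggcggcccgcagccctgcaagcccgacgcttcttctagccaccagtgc
Fzd4, chr7:89404116-89404365, plus strand: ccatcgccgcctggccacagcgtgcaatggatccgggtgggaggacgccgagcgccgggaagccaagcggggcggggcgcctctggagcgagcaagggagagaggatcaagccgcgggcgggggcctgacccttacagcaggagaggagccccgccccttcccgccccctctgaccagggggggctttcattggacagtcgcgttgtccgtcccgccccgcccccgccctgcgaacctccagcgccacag
Fzd5, chr1:64737751-64738000, minus strand: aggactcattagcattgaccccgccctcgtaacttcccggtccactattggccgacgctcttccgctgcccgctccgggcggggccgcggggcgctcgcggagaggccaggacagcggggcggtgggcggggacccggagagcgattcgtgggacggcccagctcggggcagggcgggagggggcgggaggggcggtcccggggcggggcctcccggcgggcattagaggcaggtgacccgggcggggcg
The core was found 2 times upstream of Fzd1, 1 time upstream of Fzd7 and 0 times upstream of Fzd4 and Fzd5, and 27.6% of all 32851 windows of this length held it. Fzd9 and Fzd10 also had 0 matches. GC boxes (GGGCGG, either strand, overlapping matches counted, none of which overlapped a marked core in these 4 windows) numbered 0 upstream of Fzd1, 6 upstream of Fzd7, 7 upstream of Fzd4 and 9 upstream of Fzd5, and 32.7% of all windows held at least 1. The window of Fzd1 had a GC content of 51.2%, close to the median of all windows (52.4%), whereas those of Fzd7, Fzd4 and Fzd5 had 65.2%, 72.8% and 76.4%. These matches describe the letters of the windows only, and the motifs were chosen after the signals were known.

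Fzd1, a receptor that can pass Wnt signals to beta-catenin, showed the largest difference within the family. Its brighter probe set (1437284_at) gave 1022 in SVEC4-10 cells and 6.996, below background, in MS-1 cells, which is at least 62.7-fold (log2 ratio at least 5.97). The second probe set (1422985_at) had 129 in SVEC4-10 cells and 6.07 in MS-1 cells, at least 7.93-fold. Both probe sets were therefore above background in SVEC4-10 cells and below it in MS-1 cells. How far apart the lines were could not be fixed, because the MS-1 signal was below background at both. At the brighter probe set the log2 ratio was at least 5.97, and 7.19 without a background floor. At the second probe set it was at least 2.99, from a dimmer SVEC4-10 signal over the same background.

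Fzd2, a close relative of Fzd1, was above background on both arrays at all 3 of its probe sets. The signals were 713 in SVEC4-10 cells and 69.1 in MS-1 cells at 1418532_at, the probe set used for the gene. At 1418534_at they were 323 in SVEC4-10 cells and 45.0 in MS-1 cells, and at 1418533_s_at, of a class that may match related transcripts, 654 in SVEC4-10 cells and 87.9 in MS-1 cells. The 3 log2 ratios were 3.37, 2.84 and 2.89, so the probe sets of Fzd2 gave nearly the same difference, of 7.16-fold to 10.3-fold. Fzd2 was above background in MS-1 cells, where Fzd1 was below it.

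Fzd7, the third member of that subgroup and a receptor known from stem and progenitor cells, had signals of 378 in SVEC4-10 cells and 47.8 in MS-1 cells at 1450044_at (log2 ratio 2.98). Its dim second probe set (1450043_at) had 28.5 in SVEC4-10 cells and 2.84, below background, in MS-1 cells, which is at least 1.75-fold. The direction was the same at both, but the second probe set alone would not have passed 2-fold. Of the 7 probe sets of Fzd1, Fzd2 and Fzd7, 6 passed 2-fold towards SVEC4-10, as did 14.5% of the 23074 measured probe sets with 1 gene, and 0 passed it towards MS-1, as did 11.9%.

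Fzd6, which acts in planar cell polarity and patterns the hair follicles of mice, had signals of 656 in SVEC4-10 cells and 104 in MS-1 cells at 1417301_at, a 6.29-fold difference (log2 ratio 2.65). At 1448662_at the signals were 151 in SVEC4-10 cells and 40.7 in MS-1 cells, a 3.70-fold difference. A further probe set was below background on both arrays, with 2.54 in SVEC4-10 cells and 2.99 in MS-1 cells. Both informative probe sets of Fzd6 thus placed the SVEC4-10 array higher, by different amounts.

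Fzd3, the partner of Fzd6 in planar polarity and a guidance receptor for growing axons, was dim on both arrays. It had signals of 52.1, 47.6 and 33.5 at 3 probe sets in SVEC4-10 cells, and 0.842, 2.52 and 13.0, all below background, at the same probe sets in MS-1 cells. In that order the bounds were 3.20-fold, 2.92-fold and 2.06-fold. The other 3 of its 6 probe sets were below background on both arrays, between 1.32 and 10.5 in SVEC4-10 cells and between 0.708 and 13.9 in MS-1 cells. The 2-fold difference of Fzd3 therefore rested on signals not far above background, and with background doubled its log2 ratio was 0.68.

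**Figure D2:**
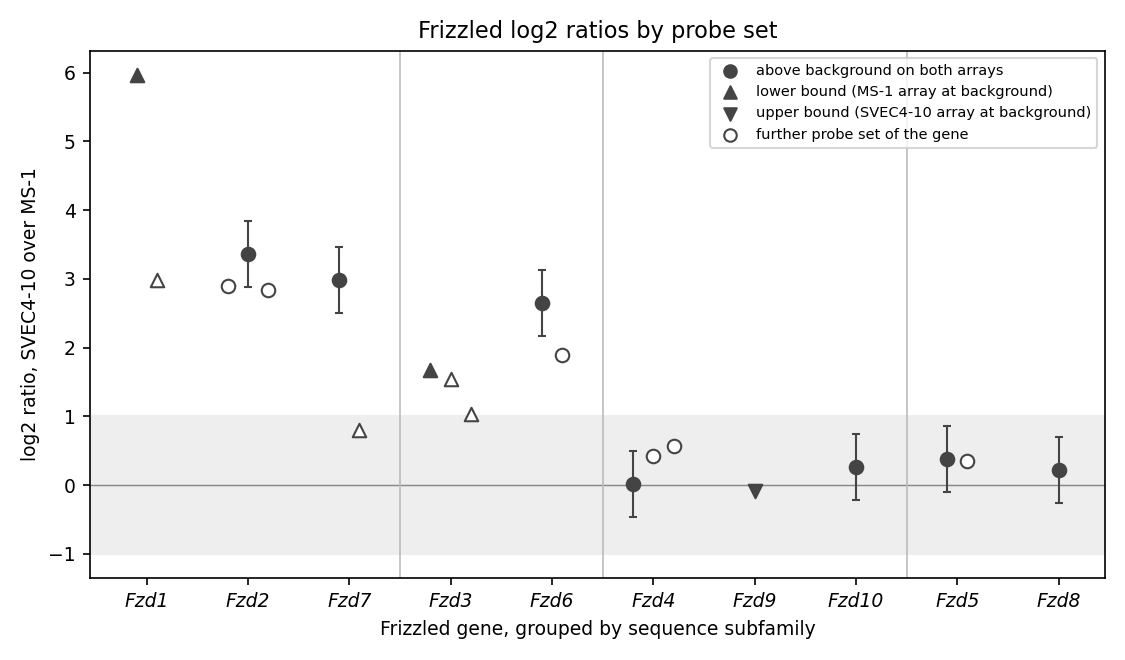
Log2 ratio (SVEC4-10 over MS-1) of the 20 measured Frizzled probe sets, with genes grouped by sequence subgroup from left to right. Filled symbols stand for the gene, open symbols are further probe sets, triangles are bounds, the grey band is within 2-fold, and bars show the error of 0.48 (SD between probe sets of a gene). Probe sets of Fzd1, Fzd2, Fzd7, Fzd3 and Fzd6 lie above the band except the second probe set of Fzd7 at 0.81, and all probe sets of the other 5 genes lie inside it.

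Fzd4, the norrin receptor, had nearly equal signals in the lines. They were 215 in SVEC4-10 cells and 213 in MS-1 cells at 1419301_at, 187 in SVEC4-10 cells and 139 in MS-1 cells at 1434756_at, and 44.7 in SVEC4-10 cells and 29.996 in MS-1 cells at 1449416_at. The log2 ratios were 0.018, 0.43 and 0.58, and scaling to the added poly-A control transcripts in place of the deposited scale turned the first to -0.49. The first 2 were smaller than the error of a log2 ratio, 0.48, and the third exceeded it slightly. That error is the SD between the 2 brightest probe sets of a gene, taken over 4813 genes, and holds no variation between cultures. Only probe sets above background on both arrays were used, of any class, whether or not they report on one transcript. The error was 0.56 among the 1605 dimmest genes and 0.40 among the 1604 brightest. All 3 probe sets of Fzd4 were above background in both lines.

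Fzd5, which mice need for the vessels of the yolk sac and placenta, had signals of 107 in SVEC4-10 cells and 81.7 in MS-1 cells at 1455604_at, a log2 ratio of 0.39. Its second probe set, 1422937_at, lay just above background with 24.5 in SVEC4-10 cells and 19.2 in MS-1 cells, a log2 ratio of 0.35. Fzd8, its closest relative, had 97.9 in SVEC4-10 cells and 83.8 in MS-1 cells at 1423348_at, a log2 ratio of 0.22, and was below background on both arrays at its other probe set. For both genes the lines differed by less than the error of 0.48.

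Fzd9 and Fzd10, the relatives of Fzd4, were at or near background. Fzd10 had 23.1 in SVEC4-10 cells and 19.2 in MS-1 cells at 1455689_at and was below background on both arrays at its second probe set, with 0.834 in SVEC4-10 cells and 4.63 in MS-1 cells. Fzd9 had 1.72 in SVEC4-10 cells and 18.7 in MS-1 cells at its only probe set, and the MS-1 signal was so close to background that the difference was bounded at only 1.06-fold. Signals this near background do not show whether Fzd9 or Fzd10 was expressed.

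**Figure D3:**
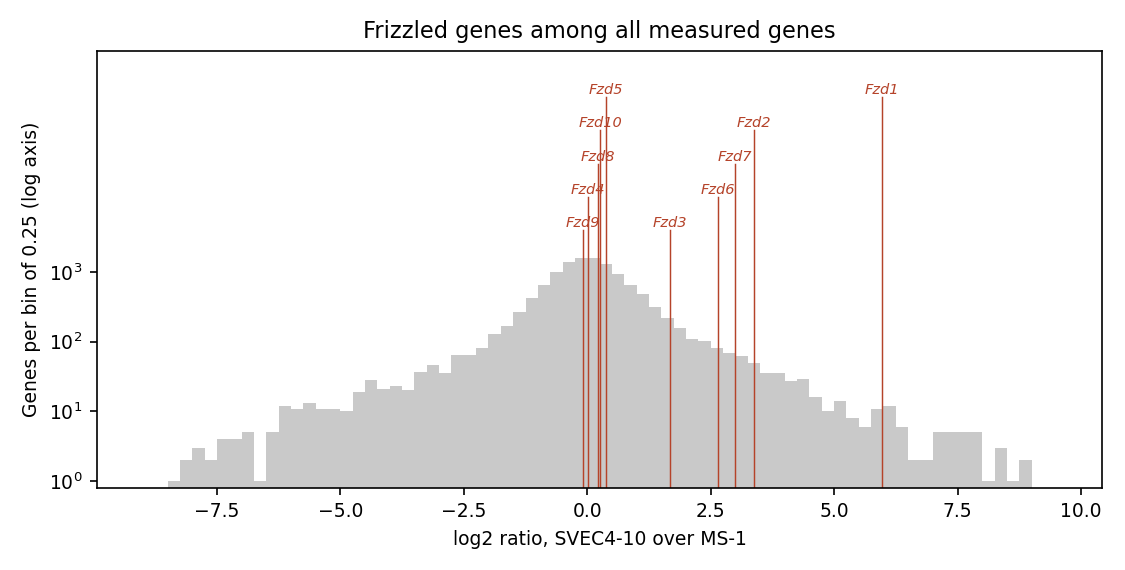
Number of genes (log axis) by log2 ratio (SVEC4-10 over MS-1) for the 12583 measured genes, with the 10 Frizzled genes marked by vertical lines. Fzd1, drawn at its lower bound of 5.97, stands far in the right tail, and Fzd2, Fzd7, Fzd6 and Fzd3 (a lower bound) lie between 3.37 and 1.68. The other 5 are drawn at the centre of the distribution between -0.088 and 0.39, where -0.088 is the upper bound of Fzd9.

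The Frizzled differences were found on arrays that differed in markers of cell type as well. For comparison, of the 18193 genes, 10074 were above background in both lines, 1125 in SVEC4-10 cells only and 1384 in MS-1 cells only. Of 15 endothelial markers, 2 were above background in SVEC4-10 cells and 14 in MS-1 cells, with summed signals of 136 in SVEC4-10 cells and 30880 in MS-1 cells, and Pecam1, Cdh5, Tek, Tie1, Emcn, Nos3 and Erg were all below background in SVEC4-10 cells. Most of the defining endothelial genes were thus below background on the array labelled SVEC4-10. Of 10 fibroblast and mesenchymal markers, 8 were above background in SVEC4-10 cells and 2 in MS-1 cells (summed signals 29151 in SVEC4-10 cells and 4292 in MS-1 cells), with Thy1 and Fap below it on both. The MS-1 sum was mostly Fn1, with 4211 in MS-1 cells and 5035 in SVEC4-10 cells. Of 7 mesothelial markers, 6 were above background in SVEC4-10 cells and 4 in MS-1 cells (summed signals 12870 in SVEC4-10 cells and 192 in MS-1 cells), Krt19 being the one below it in SVEC4-10 cells. Of 7 smooth muscle and pericyte markers, 3 were above background in SVEC4-10 cells and 2 in MS-1 cells (summed signals 10281 in SVEC4-10 cells and 73.0 in MS-1 cells), with Myh11, Cnn1 and Rgs5 below it on both. Leukocyte, epithelial and lymphatic endothelial markers above background numbered 1 of 6, 3 of 6 and 2 of 4 in SVEC4-10 cells and 3 of 6, 3 of 6 and 3 of 4 in MS-1 cells. Their summed signals were 54.6, 307 and 2132 in SVEC4-10 cells and 3722, 110 and 3514 in MS-1 cells. The leukocyte sum in MS-1 cells was mostly Cd68 (3645). Of the lymphatic markers, Lyve1 had 0.311, below background, in SVEC4-10 cells and 2348 in MS-1 cells. Pdpn had 1693 in SVEC4-10 cells and 228 in MS-1 cells, Flt4 had 438 and 938, and Prox1 was below background on both. What part these marker differences have in the Frizzled differences was not tested.

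Of 13 co-receptors and receptor partners of the Frizzleds at the membrane, 11 were measured, of which 1 passed 2-fold towards SVEC4-10 and 2 towards MS-1, beside 15.1% and 12.1% of all measured genes. The 1 became 0 with poly-A scaling and with the probe set of smallest ratio, and the 2 stayed at 2 in both. With less specific probe set classes left out the counts were 0 towards SVEC4-10 and 1 towards MS-1, and at 4-fold both were 0. Lrp5, the co-receptor that works with Fzd4 in retinal vessels, had signals of 41.4 in SVEC4-10 cells and 98.5 in MS-1 cells (log2 ratio -1.25), whereas Lrp6 had 236 in SVEC4-10 cells and 281 in MS-1 cells (log2 ratio -0.25, and 0.75 at its second probe set). Adgra2, the brain endothelial Wnt7 co-activator also called Gpr124, had 139 in SVEC4-10 cells and 499 in MS-1 cells at its only probe set, which was of the _s_at class. Ryk, a Wnt-binding kinase-like receptor, had 718 in SVEC4-10 cells and 314 in MS-1 cells. Tspan12, which boosts norrin signalling through Fzd4, had 31.2 in SVEC4-10 cells and 17.6 in MS-1 cells, and Ndp, which encodes norrin itself, was below background on both. Fzd4 thus had a log2 ratio of 0.018 where Lrp5 had -1.25. Smo, a related receptor that serves Hedgehog signalling, had 656 in SVEC4-10 cells and 492 in MS-1 cells, a log2 ratio of 0.41. Of 7 genes for Frizzled turnover, 4 were measured. Of these 1 passed 2-fold towards SVEC4-10 and 0 towards MS-1, beside 15.1% and 12.1% of all measured genes, and the 0 became 2 with poly-A scaling. The 1 was Lgr4, a receptor for the R-spondins that protect Frizzleds from degradation, with 202 in SVEC4-10 cells and 32.4 in MS-1 cells (log2 ratio 2.64).

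Among 25 secreted proteins that bind Frizzleds, 14 were measured, of which 4 passed 2-fold towards SVEC4-10 and 1 towards MS-1, beside 15.1% and 12.1% of all measured genes. The 4 were Wnts. Wnt4 had 180 in SVEC4-10 cells and 14.9, below background, in MS-1 cells (at least 11.03-fold), and Wnt11 had 119 in SVEC4-10 cells and 11.2, below background, in MS-1 cells (at least 7.28-fold). Wnt5a had 144 in SVEC4-10 cells and 44.5 in MS-1 cells, and Wnt9a had 98.2 in SVEC4-10 cells and 31.7 in MS-1 cells. Further probe sets of Wnt4 and Wnt5a gave smaller log2 ratios, down to 1.67 and 0.94. The count of 4 became 3 with the probe set of smallest ratio and 2 at 4-fold. Frzb, a secreted decoy with a Frizzled-like domain, was the gene higher in MS-1 cells, with 87.6 in SVEC4-10 cells and 455 in MS-1 cells (log2 ratio -2.38).

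Of 24 genes of the beta-catenin relay inside the cell, 22 were measured and 17 of these were within 2-fold, as were 72.8% of all measured genes. Among them was Ctnnb1, beta-catenin, with 4724 in SVEC4-10 cells and 6129 in MS-1 cells. Towards SVEC4-10 5 passed 2-fold and towards MS-1 0, beside 15.1% and 12.1% of all measured genes. The 5 became 2 with poly-A scaling, with the mean over probe sets and with the probe set of smallest ratio. The 5 included Dact1, a Dishevelled-binding protein (179 in SVEC4-10 cells and 11.2, below background, in MS-1 cells, at least 10.96-fold), and Amer1, a beta-catenin antagonist (log2 ratio 1.59). Dvl2, a Dishevelled, and Bcl9, a beta-catenin co-factor, had log2 ratios of 1.08 and 1.04, and their second probe sets gave 0.66 and 0.69, while Csnk1e, a casein kinase named here after its values were seen, had 1.01 at the probe set used and -0.37 at another. In the planar polarity and calcium branches, 2 of 21 measured genes passed 2-fold towards SVEC4-10 and 4 towards MS-1, beside 15.1% and 12.1% of all measured genes. The 2 were Daam2 (at least 4.31-fold) and Prickle2 (log2 ratio 1.01). Of the 4, Camk2d (log2 ratio -2.47) and Prickle1 (-2.24) had further probe sets at -0.18 and -0.36. These counts of 2 and 4 became 1 and 8 with poly-A scaling, and with the probe set of smallest ratio the count towards MS-1 was 0.

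Of 13 measured genes known as beta-catenin targets, 4 passed 2-fold towards SVEC4-10 and 5 towards MS-1, beside 15.1% and 12.1% of all measured genes. The 4 became 1 with poly-A scaling and 2 with background doubled, while the 5 towards MS-1 stayed at 5 in both. Axin2, the most widely used readout of the pathway, had 32.6 in SVEC4-10 cells and 13.5, below background, in MS-1 cells, a difference of at least 2.00-fold. Lef1 had 13.8, below background, in SVEC4-10 cells and 19.3, just above it, in MS-1 cells, a difference bounded at only 1.09-fold. For both genes the other probe set was below background on both arrays. Ccn4 and Apcdd1 had log2 ratios of 2.64 and 1.18, and Ccnd1, Sp5 and Cd44 had -5.38, at most -2.65 and -2.15. In the list of the norrin and Fzd4 system, which includes Fzd4, 0 of 8 measured genes passed 2-fold towards SVEC4-10 and 5 towards MS-1. The shares of all measured genes were 15.1% and 12.1%. The 5 were Plvap, Sox7, Sox18, Slc2a1 and Lrp5, with log2 ratios from at most -6.06 to -1.25. Of 14 measured endothelial markers, 13 also passed 2-fold towards MS-1. The list was not split by how its genes respond to norrin. Over all these lists without the Frizzleds, 17 of 89 measured genes (19.1%) passed 2-fold towards SVEC4-10 and 16 (17.98%) towards MS-1, beside the 15.1% and 12.1% of all measured genes given above, and with poly-A scaling these counts were 9 towards SVEC4-10 and 24 towards MS-1, beside 8.60% and 25.5% of measured genes.

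**Figure D4:**
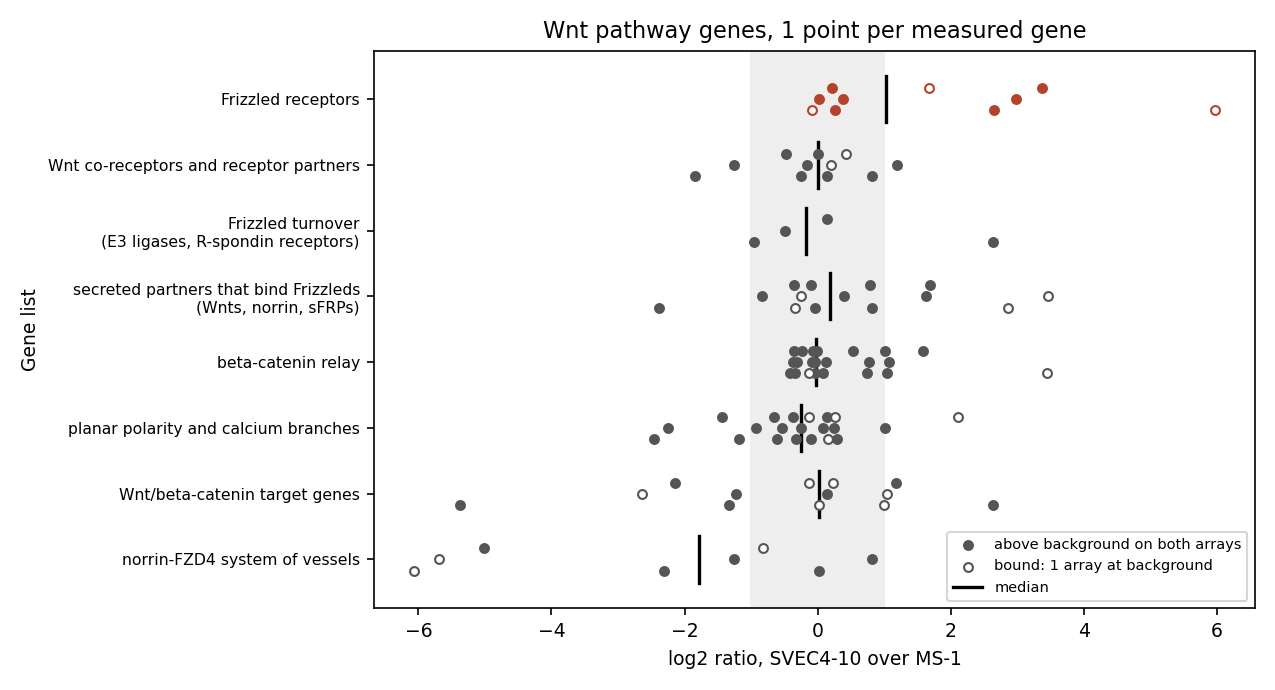
Log2 ratio (SVEC4-10 over MS-1) of each measured gene of the Frizzled family (red, top) and of 7 Wnt pathway lists, with the median of each as a black bar, the grey band within 2-fold and open circles for bounds. The Frizzled median, drawn at its lower bound of 1.03, lies in a gap between Fzd5 at 0.39 and Fzd3 at its lower bound of 1.68. It is right of the co-receptor, turnover, ligand, relay, polarity and target lists, whose medians lie between -0.25 and 0.18. The norrin and Fzd4 list has a median of -1.78.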

How the data were processed

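Total RNA (6 µg) of 1 culture of each line was made into biotin-labelled cRNA and hybridised to an Affymetrix array, per the labels' protocols. The deposited table gives a linear intensity per probe set and array, and, with the summary software not given in the sources used here, how they were summarised is unknown. For both arrays the 2%-trimmed mean was 150.001, which is a scaling made before deposit, and no further scaling was applied. Names came from the platform's annotation and RefSeq gene identifiers. Of 45101 probe sets, 34945 had 1 gene, 932 several and 9160 none here, and 64 were controls.

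Genes counted as measured if any probe set exceeded background in either line, and the brightest such probe set stood for the gene, avoiding the _s_at and _x_at classes where possible. A difference was counted from 2-fold. No test was possible with 1 array a line, and the number of arrays limits the precision. Named genes were all Frizzleds, up to 4 members a direction of each pathway list at least 2-fold apart, and 8 fixed genes. No gene was ranked by likeness to a Frizzled, since 2 arrays give no measure of it. The members and lists were chosen with earlier results of these data known. The steps, in Python 3.11.15 with pandas 2.3.3, were checked on simulated arrays. The alternatives were other scalings, backgrounds, probe set choices and fold thresholds.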

Additional observations from a re-analysis of the deposited data

How the results depend on the processing

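No paired analysis was possible because each line had 1 array. None of the 5 differing Frizzled genes changed direction in any of 9 alternatives, all of which reuse the same 2 arrays. The count of 5 was 4 at 4-fold and 2 at 8-fold. It was also 4 with background doubled and 4 with the probe set of smallest ratio, beside 15.0% and 11.1% of measured genes. Scaling to the 21 poly-A control probe sets lowers every log2 ratio by about 0.51 (log2 ratios of these controls 0.28 to 0.89), which gave log2 ratios of 5.46 for Fzd1, 2.86 for Fzd2, 1.16 for Fzd3, -0.49 for Fzd4, -0.13 for Fzd5, 2.14 for Fzd6, 2.47 for Fzd7, -0.29 for Fzd8, -0.60 for Fzd9 and -0.25 for Fzd10. It left 8.60% of measured genes past 2-fold towards SVEC4-10 and 25.5% towards MS-1. Background at the 40th percentile gave 6.46 for Fzd1, 2.16 for Fzd3 and -0.72 for Fzd9, and background doubled gave 4.97 for Fzd1 and 0.68 for Fzd3. With no floor the ratios were 7.19 for Fzd1, 4.24 for Fzd3 and -3.44 for Fzd9, and 1 Frizzled gene, Fzd9, passed 2-fold towards MS-1. Without the floor another probe set stood for Fzd3 (1434788_at, 47.6 in SVEC4-10 cells and 2.52 in MS-1 cells). The mean over probe sets gave 4.48 for Fzd1 and 1.89 for Fzd7, and the probe set with the smallest ratio 2.99 for Fzd1, 2.84 for Fzd2, 1.04 for Fzd3, 1.89 for Fzd6 and 0.81 for Fzd7. Of the pathway genes, 17 passed 2-fold towards SVEC4-10 and 16 towards MS-1, which became 6 and 10 at 4-fold and 2 and 4 at 8-fold. With poly-A scaling they became 9 and 24, and with the smallest ratio 11 and 12. With background doubled, Fzd9 and Fzd10 were not measured and gave no value. These shifts follow from the floor, scale or probe set changed. Signals near background limit Fzd3, Fzd9 and Fzd10.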

Other observations

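Fzd10os, the transcript annotated on the opposite strand to Fzd10, had 2 probe sets. One had a signal of 12.3, below background, in SVEC4-10 cells and 24.2 in MS-1 cells, a log2 ratio of at most -0.46. The other had 3.56 in SVEC4-10 cells and 10.0 in MS-1 cells, both below background.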
